A study of Mus musculus with 11 samples.

Results

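This account covers 10 genes of transforming growth factor beta (TGF-beta) signalling in mouse microglia that carry amyloid-driving App alleles and differ in Tyrobp and Inpp5d. The genes are the ligand Tgfb1, its surface anchor Nrros, the receptors Tgfbr1 and Tgfbr2, the signal transducers Smad2, Smad3 and Smad4, the inhibitory Smad7, and the corepressors Ski and Skil. They were picked by gene symbol from the 55401 genes of the count table. All 10 were among the 20390 genes with enough reads to test.

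The samples were 11 libraries of live CD11b+/CD45+ cells sorted from brain as microglia, from C57BL/6 mice aged 9 to 10 months. All groups carried NLGF, the App knock-in alleles of an amyloid plaque model. There were 3 libraries of NLGF alone, 3 of Inpp5d+/-;NLGF (here the Inpp5d heterozygote), 2 of Tyrobp-/-;NLGF (here the Tyrobp mutant) and 3 that combine both as Tyrobp-/-;Inpp5d+/-;NLGF (here the compound mutant). Tyrobp-/- libraries means those of the Tyrobp mutant and the compound mutant together. No library without NLGF was used here, so the values do not separate the effect of the App alleles. The study asked how Inpp5d, encoding the phosphatase SHIP1, bears on loss of signalling through the receptor TREM2, for which Tyrobp encodes the adaptor DAP12. The labels used here name no Cre line or promoter that would limit either mutation to microglia.

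TGF-beta is made as a latent complex that must be released before it acts. On microglia the complex is held at the cell surface by NRROS. The active ligand brings the type II receptor TGFBR2 together with the type I receptor TGFBR1, whose kinase phosphorylates SMAD2 and SMAD3, and these enter the nucleus with SMAD4. SMAD7 blocks the type I receptor and is itself a target of the pathway, and SKI and SKIL (SnoN) repress SMAD target genes. In the brain the pathway is known for maintaining the homeostatic identity of microglia.

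The promoters of Tgfbr2 and Nrros are shown because these members had the smallest p-values when both Tyrobp genotypes were compared over all 11 libraries. Each is the 250 bases before the RefSeq gene start on GRCm38.p6, written 5′ to 3′ on the gene's own strand, at chr9:116175364-116175613 (minus strand) for Tgfbr2 and chr16:32165595-32165844 (minus strand) for Nrros. Capitals mark matches, on either strand, to the Smad box CAGAC or to GAGGAAG, a core bound by ETS factors such as PU.1.
Tgfbr2: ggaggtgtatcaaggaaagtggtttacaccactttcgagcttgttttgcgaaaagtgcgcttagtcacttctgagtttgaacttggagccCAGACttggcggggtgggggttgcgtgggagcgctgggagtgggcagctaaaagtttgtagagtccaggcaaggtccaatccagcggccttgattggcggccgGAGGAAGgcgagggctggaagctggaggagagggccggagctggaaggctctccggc
Nrros: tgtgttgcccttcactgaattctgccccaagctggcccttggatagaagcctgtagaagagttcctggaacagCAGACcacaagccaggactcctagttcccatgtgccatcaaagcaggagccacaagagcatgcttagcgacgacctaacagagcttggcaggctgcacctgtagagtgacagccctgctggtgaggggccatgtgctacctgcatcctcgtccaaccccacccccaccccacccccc

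In Tgfbr2 the CAGAC match ended 155 bases and the GAGGAAG match 50 bases before the start. In Nrros the CAGAC match ended 172 bases before the start, and GAGGAAG was not among these letters. Over 32851 RefSeq promoter windows of the same length, 42.2% held CAGAC and 10.6% held GAGGAAG on either strand, so either match alone is common. The palindromic Smad element GTCTAGAC, which contains no CAGAC but ends in AGAC, was in 0.167% of windows and TGANTCA, the AP-1 site, in 6.75%; neither was in these windows. A window was found for 6 of the 10 members. Ski, Tgfb1, Smad3 and the upstream start of Tgfbr1 held none of the 4 motifs, and the second start of Tgfbr1 held CAGAC and GAGGAAG once each. A match describes the letters and shows no binding.

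The libraries held 29490567 to 66637052 counts, and values are given as CPM, counts divided by the TMM-scaled size of each library. Tyrobp stood at 2190 ± 318 CPM (SD, n = 3) in NLGF and 2150 ± 179 (SD, n = 3) in the Inpp5d heterozygote, against 7.98 ± 1.36 (SD, n = 2) in the Tyrobp mutant and 5.16 ± 2.81 (SD, n = 3) in the compound mutant, as labelled. Inpp5d stood at 318 ± 116 CPM (SD, n = 3) in NLGF and 230 ± 45.5 (SD, n = 3) in the Inpp5d heterozygote, whose ranges of 205 to 436 and 191 to 280 CPM overlapped. It stood at 448 ± 1.26 CPM (SD, n = 2) in the Tyrobp mutant and 236 ± 40.3 (SD, n = 3) in the compound mutant, without overlap, a log2 difference of -0.92 (SE 0.28, adjusted p 1 by edgeR's quasi-likelihood test) in the labelled direction. The 10 microglia markers summed to 46200 to 55600 CPM over all libraries, and none was at 0. The 13 neutrophil markers summed to 364 to 479 CPM in NLGF and 373 to 569 in the Inpp5d heterozygote. They summed to 19400 and 4680 in the Tyrobp mutant and to 493, 10200 and 2650 in the compound mutant. The 10 monocyte markers followed the same split, with 16.4 to 81.3 CPM in the groups with Tyrobp and 126 to 2070 CPM in the groups without it. In libraries with Tyrobp most of the neutrophil sum was 1 marker, Csf3r. It stood at 320 ± 64.6 CPM (SD, n = 3) in NLGF and 344 ± 33.2 (SD, n = 3) in the Inpp5d heterozygote. Csf3r was not higher in the Tyrobp mutant, at 289 ± 5.86 CPM (SD, n = 2), or the compound mutant, at 293 ± 66 (SD, n = 3). The sample titles carry numbers that are lower for all Tyrobp-/- samples than for any sample with Tyrobp, so whatever they mark and the Tyrobp genotype cannot be told apart. In sorted cells measured in bulk, fewer cells of a type and less RNA per cell cannot be told apart either.

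Per kilobase of exon, the receptors and the anchor were the most abundant of the 10 transcripts and the ligand was among the lowest. Tgfbr1 had a median of 276 CPM per kb over the 11 libraries (range 242 to 347), a higher mean level than 99.1% of tested genes. Nrros had a median of 121 CPM per kb (92.5 to 184) and Tgfbr2 one of 95.8 CPM per kb (50.5 to 123). The ranges of Nrros and Tgfbr2 overlapped, and Nrros was the higher in 7 of 11 libraries, so their order was not beyond the spread. Skil followed at a median of 20.6 CPM per kb, below every Tgfbr2 value and above every Ski value. The remaining neighbours in the order, Ski at 11.6, Smad3 at 9.71, Smad2 at 8.71, Smad7 at 6.71, Tgfb1 at 6.11 and Smad4 at 4.2 CPM per kb, overlapped pairwise. Even Smad4 had a higher mean level than 62.5% of tested genes.

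**Figure D1:**
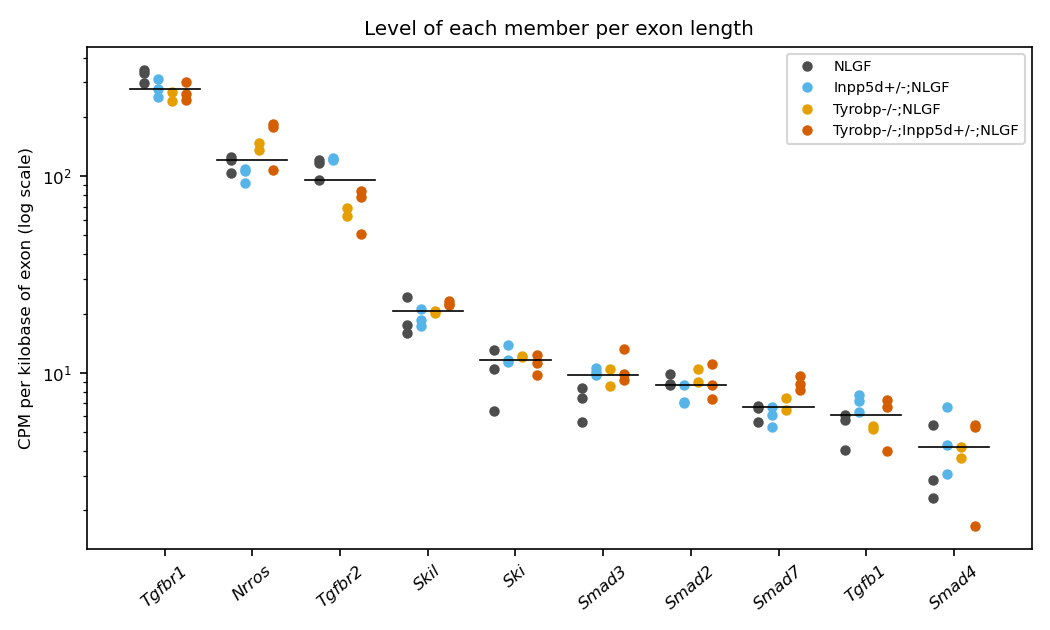
Level of each of the 10 genes in CPM per kilobase of exon on a log axis, 1 point per library coloured by group, with a bar at the median of the 11 libraries. Tgfbr1 lies above all other members, Tgfbr2 and Nrros overlap, and the transducers and Tgfb1 lie well below the receptors.

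Smad4 varied most between libraries, with its highest value 4.02 times its lowest, and Tgfbr1 least, at 1.43 times. Tgfbr2 (2.43 times), Smad3 (2.35 times) and Ski (2.17 times) also varied widely. Nrros spanned 1.99 times, Tgfb1 1.92, Smad7 1.8, Smad2 1.58 and Skil 1.51. Whether this spread followed genotype differed by gene, and is given member by member below.

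**Figure D2:**
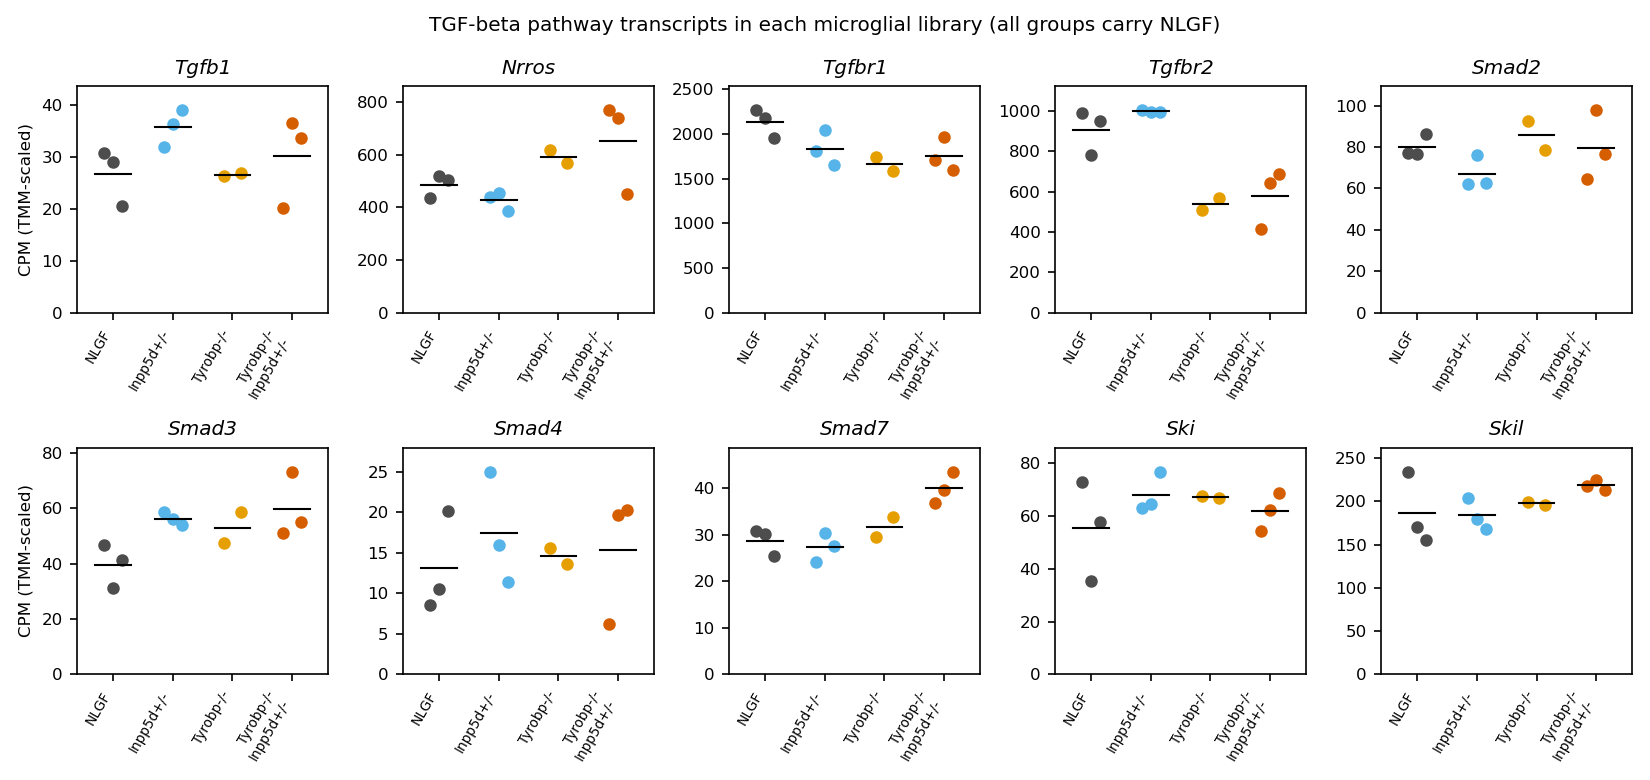
CPM of each member in each library, 1 panel per gene with a linear axis from 0, 1 point per library and a bar at the group mean. Tgfbr2 shows all 5 Tyrobp-/- libraries, at 413 to 686 CPM, below the 6 others, at 784 to 1003 CPM, while in the other 9 genes the Tyrobp-/- libraries overlap the rest.

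Tgfbr2, the ligand-binding type II receptor (ENSMUSG00000032440.13, chromosome 9, 116084293 to 116175360, minus strand), showed the clearest pattern. Levels were 988, 784 and 952 CPM in NLGF and 1003, 994 and 997 CPM in the libraries of the Inpp5d heterozygote. They were 511 and 566 CPM in the Tyrobp mutant and 413, 642 and 686 CPM in the compound mutant. Every library without Tyrobp lay below every library with it, and within each Tyrobp genotype the Inpp5d genotypes were close.

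Over both Inpp5d genotypes, Tgfbr2 fell by 0.77 on the log2 scale (SE 0.13, 95% interval -1.06 to -0.48) in the 5 Tyrobp-/- libraries against the other 6. The adjusted p was 0.0104 by edgeR's quasi-likelihood test with Benjamini-Hochberg adjustment over all tested genes, the source of every adjusted p below unless another tool is named. Tgfbr2 was the only one of the 10 members that passed, in a comparison where 4.75% of all tested genes passed. There 4 members and 3919 of the 20390 tested genes had an unadjusted p under 0.05. Tgfbr2 was also the only member whose libraries did not overlap between the Tyrobp genotypes, against 6.17% of tested genes. This joint comparison was added after the data were seen. DESeq2 called 3 members there (against 11.5% of the genes it tested) and limma-voom 1 (5.74%). The edgeR call was lost without Tyrobp mutant replicate 1 (log2 change -0.73, adjusted p 0.0633), where the 1 library left in that group is taken to vary like the others and 1.65% of genes passed, and without both libraries richest in the neutrophil gene S100a8 (-0.77, adjusted p 0.0931), where 0.972% passed.

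In the separate comparisons Tgfbr2 differed by a like amount and did not pass. The Tyrobp mutant against NLGF gave a log2 difference of -0.75 (SE 0.19, adjusted p 0.122), and the compound mutant against the Inpp5d heterozygote, which shares no library with it, gave -0.78 (SE 0.17, adjusted p 0.0743). The compound mutant against NLGF gave -0.65 (SE 0.17, adjusted p 0.141). DESeq2 called all 3, with adjusted p of 0.00381, 0.000317 and 0.00683. With edgeR the first passed when compound replicate 1 was left out (-0.75, adjusted p 0.0222), and the second when only genes with a mean of at least 1 CPM were tested (-0.80, adjusted p 0.0373).

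Inpp5d genotype was not accompanied by a detectable difference in Tgfbr2. The Inpp5d heterozygote against NLGF gave a log2 difference of 0.14 (95% interval -0.24 to 0.51, adjusted p 1) and the compound mutant against the Tyrobp mutant gave 0.11 (-0.32 to 0.53, adjusted p 1). The interaction of the 2 genotypes was -0.03 (95% interval -0.59 to 0.54, adjusted p 1). These intervals still allow moderate differences in either direction.

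Neutrophil marker levels moved with the Tyrobp genotype. In the Tyrobp-/- libraries, ordered by neutrophil marker sums of 493, 2650, 4680, 10200 and 19400 CPM, Tgfbr2 stood at 413, 686, 566, 642 and 511 CPM. With the neutrophil marker mean as a covariate the joint log2 difference was -0.93 (SE 0.25, adjusted p 0.263), no longer past the threshold, in a fit where 0.245% of all tested genes passed. With the mean of 15 immediate early genes as a covariate it was -0.94 (SE 0.21, adjusted p 0.0991), where 0.942% passed.

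**Figure D3:**
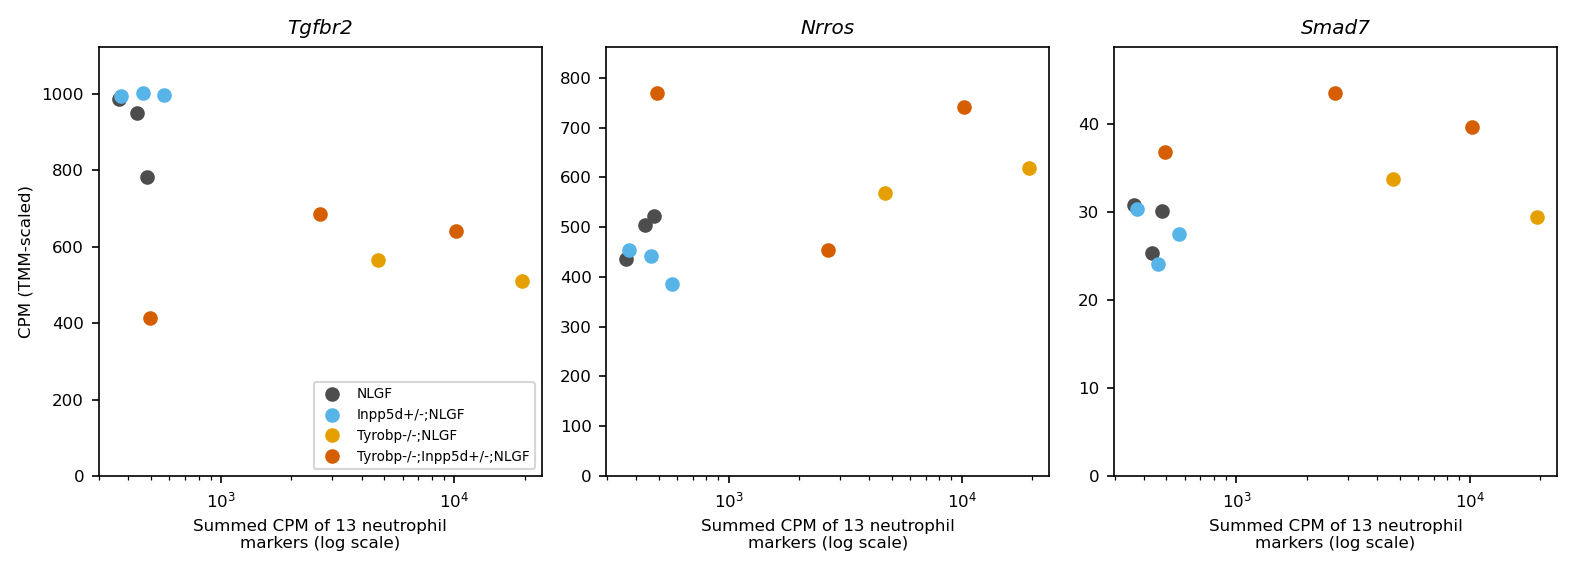
CPM of Tgfbr2, Nrros and Smad7 (linear axes from 0) against the summed CPM of 13 neutrophil markers (log axis), 1 point per library coloured by group. Of the 5 Tyrobp-/- libraries, 1 compound library lies at 493 CPM of neutrophil markers, among the libraries with Tyrobp, with 413 CPM of Tgfbr2 and 769 CPM of Nrros, and the other 4 lie at 2650 to 19400 CPM. In the libraries with Tyrobp most of the marker sum is Csf3r.

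Tgfbr1, the signalling type I receptor (ENSMUSG00000007613.15, chromosome 4, 47353222 to 47414931, plus strand), stood at 2267, 2179 and 1955 CPM in NLGF and at 1806, 2043 and 1655 CPM in the Inpp5d heterozygote. It stood at 1745 and 1583 CPM in the Tyrobp mutant and at 1710, 1963 and 1594 CPM in the compound mutant. NLGF held the 2 highest values, and the other 3 groups overlapped. The Tyrobp mutant against NLGF gave a log2 difference of -0.36 (SE 0.12, adjusted p 0.233), without overlap. On the Inpp5d+/- background the difference between Tyrobp genotypes was -0.06 (95% interval -0.3 to 0.17, adjusted p 0.866). The joint value was -0.21 (SE 0.079, adjusted p 0.177), and no comparison of Tgfbr1 passed.

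Nrros, the anchor of latent TGF-beta on microglia (ENSMUSG00000052384.14, chromosome 16, 32142785 to 32165594, minus strand), stood at 436, 521 and 503 CPM in NLGF and at 442, 455 and 387 CPM in the Inpp5d heterozygote. It stood at 619 and 568 CPM in the Tyrobp mutant and at 769, 741 and 453 CPM in the compound mutant. Of the 5 Tyrobp-/- libraries, 4 lay above every library with Tyrobp, and compound replicate 3 lay among the latter. The joint log2 difference was 0.45 (SE 0.13, 95% interval 0.15 to 0.75, adjusted p 0.0945), and the compound mutant against the Inpp5d heterozygote gave 0.61 (SE 0.18, adjusted p 0.176). Without compound replicate 3 these were 0.55 (adjusted p 0.0067) and 0.82 (adjusted p 0.0123), both past the threshold, and the compound mutant against NLGF moved from 0.43 (adjusted p 0.353) to 0.63 (adjusted p 0.0435). DESeq2 called the joint difference (adjusted p 0.0102) and that against the Inpp5d heterozygote (adjusted p 0.0174) with all libraries kept. Most alternative settings gave no call for Nrros. The joint difference was called in 3 of 21, that against the Inpp5d heterozygote in 2 of 22 and that against NLGF in 1 of 22. The Tyrobp mutant against NLGF gave 0.29 (adjusted p 0.635), and the Inpp5d heterozygote against NLGF gave -0.19 (adjusted p 1).

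Tgfb1, the ligand (ENSMUSG00000002603.15, chromosome 7, 25687002 to 25705077, plus strand), stood at 30.8, 29.0 and 20.5 CPM in NLGF and at 32.0, 36.5 and 39.0 CPM in the Inpp5d heterozygote. It stood at 26.3 and 27.0 CPM in the Tyrobp mutant and at 20.3, 36.6 and 33.8 CPM in the compound mutant. The libraries of the Inpp5d heterozygote all lay above NLGF, by a log2 difference of 0.42 (95% interval -0.11 to 0.95, adjusted p 0.952) that did not pass, and the compound mutant spanned both. The joint difference between Tyrobp genotypes was -0.13 (95% interval -0.52 to 0.27, adjusted p 0.783), and the compound mutant against the Inpp5d heterozygote gave -0.25 (adjusted p 0.723). Tgfb1 lies 4.71 Mb from Tyrobp on the same chromosome.

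Smad3, a receptor-activated transducer (ENSMUSG00000032402.12, chromosome 9, 63646767 to 63757994, minus strand), was lowest in NLGF. It stood at 46.6, 31.1 and 41.2 CPM there, against 58.7, 56.1 and 53.8 CPM in the Inpp5d heterozygote, 47.3 and 58.4 CPM in the Tyrobp mutant, and 51.2, 73.1 and 54.9 CPM in the compound mutant. Every library of the 3 mutant groups lay above every NLGF library, and the mutant groups overlapped. The share of all tested genes split in that way was not computed. The log2 differences from NLGF were 0.50 (SE 0.19, adjusted p 0.952) for the Inpp5d heterozygote, 0.41 (SE 0.21, adjusted p 0.47) for the Tyrobp mutant and 0.59 (SE 0.19, adjusted p 0.217) for the compound mutant. These 3 values share the NLGF libraries and so are not independent, and edgeR called none. DESeq2 called the last (0.60, adjusted p 0.0408). On the Inpp5d+/- background, loss of Tyrobp was accompanied by a difference of 0.09 (adjusted p 0.903), and the joint difference between Tyrobp genotypes was 0.25 (adjusted p 0.376).

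Smad2, the other receptor-activated transducer (ENSMUSG00000024563.16, chromosome 18, 76241580 to 76310963, plus strand), stood at 77.0, 76.4 and 86.4 CPM in NLGF and at 62.0, 76.2 and 62.6 CPM in the Inpp5d heterozygote. It stood at 92.6 and 78.6 CPM in the Tyrobp mutant and at 64.5, 97.7 and 76.5 CPM in the compound mutant. The Inpp5d heterozygote lay below NLGF without overlap, by 76.2 against 76.4 CPM at the boundary, and the log2 difference of -0.26 (95% interval -0.62 to 0.11, adjusted p 0.957) did not pass. Thus Smad2 was lower and Smad3 higher in the Inpp5d heterozygote than in NLGF, neither past the threshold.

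Smad4, the partner shared by all Smad complexes (ENSMUSG00000024515.13, chromosome 18, 73639009 to 73703780, minus strand), was the lowest and most variable member. It stood at 8.54, 10.6 and 20.1 CPM in NLGF and at 25.0, 15.95 and 11.3 CPM in the Inpp5d heterozygote, with 15.6 and 13.6 CPM in the Tyrobp mutant and 6.22, 19.7 and 20.2 CPM in the compound mutant. The spread lay within groups, and the joint difference between Tyrobp genotypes was -0.01 (95% interval -0.82 to 0.8, adjusted p 1), an interval too wide to show whether Smad4 differed. With the neutrophil marker mean as a covariate it was -1.16 (SE 0.61, adjusted p 0.586). Smad4 is the only member overlapped by another annotated gene, Gm50126 on the opposite strand, which reached at most 0.653 CPM. The strand setting of the counts is not given, so that level does not show how reads in the overlap were assigned.

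Smad7, the inhibitory Smad (ENSMUSG00000025880.11, chromosome 18, 75367529 to 75395935, plus strand), was highest in the compound mutant. It stood at 36.8, 39.6 and 43.5 CPM there, against 30.7, 30.1 and 25.3 CPM in NLGF, 24.1, 30.3 and 27.4 CPM in the Inpp5d heterozygote and 29.4 and 33.7 CPM in the Tyrobp mutant. The 3 compound libraries lay above all 8 others, which overlapped among themselves. For this split, too, the share over all tested genes was not computed. The compound mutant exceeded the Inpp5d heterozygote by 0.55 on the log2 scale (SE 0.15, adjusted p 0.15), NLGF by 0.48 (SE 0.15, adjusted p 0.212) and the Tyrobp mutant by 0.34 (SE 0.17, adjusted p 1), differences that share the compound libraries and that edgeR did not call. DESeq2 called the first (0.55, adjusted p 0.015) and the second (0.49, adjusted p 0.0411). The Tyrobp mutant against NLGF gave 0.14 (adjusted p 0.828), and the joint difference was 0.34 (SE 0.11, adjusted p 0.123).

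Ski and Skil, corepressors that bind Smad complexes, did not differ beyond the spread in any comparison by edgeR. Ski (ENSMUSG00000029050.15, chromosome 4, 155154075 to 155222592, minus strand) stood at 73.0, 35.4 and 57.8 CPM in NLGF, 63.2, 64.6 and 76.8 in the Inpp5d heterozygote, 67.8 and 66.7 in the Tyrobp mutant and 54.5, 62.4 and 68.7 in the compound mutant, so that all groups overlapped NLGF. Skil (ENSMUSG00000027660.16, chromosome 3, 31095058 to 31122577, plus strand) stood at 234.3, 171 and 155 CPM in NLGF, 204, 180 and 168 in the Inpp5d heterozygote, 200 and 196 in the Tyrobp mutant and 218, 225 and 213 in the compound mutant. Skil in the compound mutant lay above the Inpp5d heterozygote without overlap (log2 difference 0.25, 95% interval -0.08 to 0.58, adjusted p 0.487) but within the NLGF range. The joint differences were 0.07 (95% interval -0.31 to 0.45, adjusted p 0.895) for Ski and 0.17 (-0.08 to 0.41, adjusted p 0.473) for Skil.

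**Figure D4:**
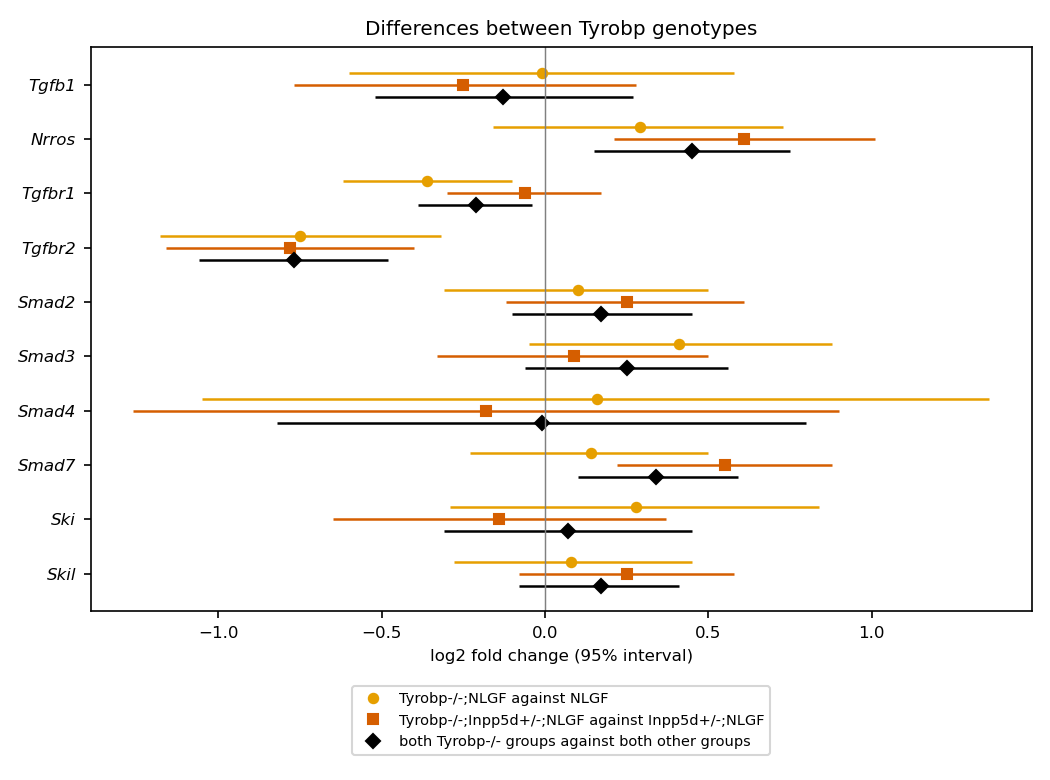
Log2 fold change of each member between Tyrobp genotypes, with 95% intervals, for the Tyrobp mutant against NLGF (circles), the compound mutant against the Inpp5d heterozygote (squares) and both Tyrobp-/- groups against both others (diamonds). Tgfbr2 lies near -0.75 in all 3, and its joint value of -0.77 is the only one with an adjusted p under the threshold.

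Counted over the 10 members, the pairwise comparisons gave no call by edgeR. In the Tyrobp mutant against NLGF, 0 members passed against 0.863% of all tested genes, 2 had an unadjusted p under 0.05, DESeq2 called 1 (against 5.72% of the genes it tested) and limma-voom 0 (1.6%). In the compound mutant against the Inpp5d heterozygote, 0 passed against 0.897%, 3 had an unadjusted p under 0.05, DESeq2 called 3 (5.74%) and limma-voom 0 (0.937%). In the compound mutant against NLGF, 0 passed against 0.873%, 5 had an unadjusted p under 0.05, DESeq2 called 3 (5.64%) and limma-voom 0 (1.02%). With backgrounds below 1 in 100 tested genes, a count of 0 among 10 genes is near what the background share alone gives. For an unadjusted p under 0.05, the background was 2463, 2734 and 2658 of the 20390 tested genes in the same order.

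The Inpp5d comparisons were emptier across the whole table. The Inpp5d heterozygote against NLGF called 0 members and 0% of tested genes. At an unadjusted p under 0.05 were 1 member and 951 of the 20390 tested genes. The compound mutant against the Tyrobp mutant called 0 members against 0.00981%, and the interaction called 0 members and 0% of genes. In either, 0 members had an unadjusted p under 0.05, beside 831 and 958 of all tested genes. DESeq2 called 0 members too, against 0.145%, 0.266% and 0.18% of genes in the order given, and limma-voom 0 members and 0% of genes.

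Some members separated the groups without overlap in comparisons that called none of them, as did many other tested genes. In the Tyrobp mutant against NLGF, 4 members did not overlap (Nrros and Smad3 higher, Tgfbr1 and Tgfbr2 lower), against 29.6% of tested genes. In the compound mutant, 3 members did not overlap with the Inpp5d heterozygote (Smad7 and Skil higher, Tgfbr2 lower; 18.6% of genes), and 3 did not overlap with NLGF (Smad3 and Smad7 higher, Tgfbr2 lower; 18% of genes). Against the Tyrobp mutant, 2 members did not overlap (Smad7 and Skil, both higher in the compound mutant; 18.8% of genes). In the Inpp5d heterozygote against NLGF, 4 members did not overlap (Tgfb1, Tgfbr2 and Smad3 higher, Smad2 lower; 7.62% of genes), although no test passed there. The median log2 difference of the members lay between 0.01 and 0.2 in all 7 comparisons, beside medians of 0 to 0.03 over all tested genes.

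Other genes of the pathway were described with 7 lists holding 113 genes, of which 104 were tested. In the Tyrobp mutant against NLGF, 5 of them rose and 5 fell, in the compound mutant against the Inpp5d heterozygote 6 rose and 7 fell, and in the compound mutant against NLGF 6 rose and 6 fell. Of all tested genes, 0.863%, 0.897% and 0.873% were called in either direction in the same comparisons. No gene of the lists passed in either Inpp5d comparison or the interaction. There edgeR counted 7, 5 and 4 genes of the lists at an unadjusted p under 0.05, against 951, 831 and 958 of all 20390 tested genes. DESeq2 called 0, 1 and 1 genes of the lists, against 0.145%, 0.266% and 0.18% of the genes it tested. In the pairwise comparisons calls came almost wholly from the response lists. The machinery lists, namely ligands and activating factors (10 of 16 tested), other receptors of the family (9 of 10), Smads of the BMP branch (3 of 4) and regulators and cofactors (31 of 31), held 1 gene called in a pairwise comparison, Dab2. The joint Tyrobp comparison, where 4.75% of all tested genes passed, called 9 genes of the lists higher and 12 lower. Of these, 3 were in the machinery lists, all lower, namely Dab2, the decoy receptor Bambi and the ligand Tgfb2, the latter 2 named after their values were seen. Tgfb2 was scarce, at 0.567 to 3.33 CPM in libraries with Tyrobp and 0 to 0.462 CPM in those without, and was at 0 in both Tyrobp mutant libraries, so its fold change is not given (adjusted p 0.0299).

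Dab2, an endocytic adaptor that binds TGF-beta receptors and Smads, stood at 30.1, 32.3 and 25.5 CPM in NLGF and 63.3, 26.2 and 40.9 CPM in the Inpp5d heterozygote. It stood at 13.3 and 12.7 CPM in the Tyrobp mutant and 12.6, 15.3 and 16.4 CPM in the compound mutant, so that, as with Tgfbr2, all Tyrobp-/- libraries lay below the rest. It fell by 1.56 on the log2 scale in the compound mutant against the Inpp5d heterozygote (SE 0.28, adjusted p 0.0389), and this call held in 8 of 22 alternative settings. Against NLGF the values were -1.17 (adjusted p 0.15) for the Tyrobp mutant and -0.99 (adjusted p 0.173) for the compound mutant.

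Among 16 tested genes of the general TGF-beta response, targets shared by many cell types, Id2, a helix-loop-helix inhibitor, and Junb, an AP-1 subunit, rose with loss of Tyrobp. Id2 stood at 127 ± 9.36 CPM (SD, n = 3) in NLGF, 158 ± 20.6 (SD, n = 3) in the Inpp5d heterozygote, 224 ± 3.34 (SD, n = 2) in the Tyrobp mutant and 258 ± 14.3 (SD, n = 3) in the compound mutant. Its log2 changes were 0.81 in the Tyrobp mutant against NLGF, 0.70 in the compound mutant against the Inpp5d heterozygote and 1.01 in the compound mutant against NLGF (adjusted p 0.0156, 0.0196 and 0.0036). Junb changed by 0.91, 0.97 and 1.09 in the same comparisons (adjusted p 0.0225, 0.011 and 0.00716). Atf3, a stress-induced transcription factor, gave 0.78 in the first, which did not pass (adjusted p 0.0523), and rose by 0.72 and 0.90 in the others (adjusted p 0.0487 and 0.0196). These Atf3 calls held in only 7 and 15 of 22 alternative settings.

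The same list held the transcriptional repressor Bhlhe40, which fell. Bhlhe40 stood at 65.2 ± 6.32 CPM (SD, n = 3) in NLGF and 81.6 ± 9.28 (SD, n = 3) in the Inpp5d heterozygote, against 6.44 ± 3.98 (SD, n = 2) in the Tyrobp mutant and 4.09 ± 1.39 (SD, n = 3) in the compound mutant. Its log2 changes were -3.34, -4.32 and -3.99 (adjusted p 0.00885, 0.00139 and 0.00159). Tsc22d1, named after its values were seen to complete the count, fell by 2.41 and 2.63 in the compound mutant against the Inpp5d heterozygote and NLGF (adjusted p 0.0482 and 0.0349) and gave -2.79 in the Tyrobp mutant against NLGF (adjusted p 0.0547). The Tsc22d1 calls in the compound mutant held in only 9 and 11 of 22 alternative settings. The list median was 0.8, 0.64 and 0.96 in the 3 comparisons, beside 0, 0.02 and 0.03 over all genes, yet its called genes went both ways. The median also rests on scarce genes. In NLGF (n = 3) the means were 0 CPM for Angptl4, 0.171 for Id3, 0.231 for Id1, 1.8 for Nedd9 and 2.32 for Cdkn2b. All of these except Cdkn2b had a higher mean in the Tyrobp mutant.

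Immediate early genes, induced within a short time of stimulation or handling, moved with the Tyrobp genotype too. Of 15, 4 rose in the Tyrobp mutant against NLGF, 2 in the compound mutant against the Inpp5d heterozygote and 6 in the compound mutant against NLGF. Of all tested genes, 0.863%, 0.897% and 0.873% were called in either direction. The medians of the 15 were 1.26, 0.68 and 1.09. Their summed level was 2360 to 6190 CPM in NLGF, 4350 to 7470 in the Inpp5d heterozygote, 9080 and 10600 in the Tyrobp mutant and 7890 to 11800 in the compound mutant, and none was at 0. Junb and Atf3 belong to both lists and so to the covariate, and their values under it are left out. With the immediate early mean as a covariate, Id2 gave 1.03, 0.82 and 1.2 in the 3 comparisons (adjusted p 0.0931, 0.0264 and 0.028) and Bhlhe40 gave -3.37, -4.33 and -4.02 (adjusted p 0.12, 0.00756 and 0.0282), so that both lost only the first call.

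Of 22 microglial genes known to depend on TGF-beta, 3 rose and 0 fell in each of these comparisons, and 10 of the 22 are also on the microglia marker list. Over all tested genes, 0.863%, 0.897% and 0.873% were called in either direction, in the same order. Tmem119, a surface protein of homeostatic microglia, stood at 3580 ± 210 CPM (SD, n = 3) in NLGF, 3370 ± 296 (SD, n = 3) in the Inpp5d heterozygote, 5600 ± 38.3 (SD, n = 2) in the Tyrobp mutant and 5310 ± 315 (SD, n = 3) in the compound mutant. Its log2 changes were 0.64, 0.66 and 0.57 (adjusted p 0.00885, 0.00493 and 0.01). Sparc, a secreted matrix protein of homeostatic microglia, rose by 0.44, 0.46 and 0.46 (adjusted p 0.0221, 0.0109 and 0.0112). Crybb1, a crystallin used as a microglial marker, rose by 1.28, 1.36 and 1.15 (adjusted p 0.0225, 0.0121 and 0.0262). The medians of the list were 0.08, 0.11 and 0.09, with differences in both directions, and 9, 11 and 10 of the 22 had an unadjusted p under 0.05. Among all 20390 tested genes, 2463, 2734 and 2658 had one.

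Of 13 genes that rise in microglia when TGF-beta signalling is removed, 0 rose and 4 fell in each comparison. The shares called over all tested genes were again 0.863%, 0.897% and 0.873%. Spp1, the secreted protein osteopontin, stood at 549 ± 83.7 CPM (SD, n = 3) in NLGF, 587 ± 34.8 (SD, n = 3) in the Inpp5d heterozygote, 13.7 ± 3.11 (SD, n = 2) in the Tyrobp mutant and 34.7 ± 9.29 (SD, n = 3) in the compound mutant. Its log2 changes of -5.33, -4.08 and -3.98 (adjusted p 0.000122, 7.63e-05 and 9.19e-05) passed in all 22 alternative settings. Cst7, encoding cystatin F, fell by 3.59, 2.98 and 2.87, and Clec7a, encoding the receptor dectin-1, by 2.61, 1.57 and 2.02. Itgax, encoding CD11c, fell by 3.02, 2.80 and 2.81. In the same order, calls held in 21, 22 and 22 of 22 alternative settings for Cst7. They held in 16, 8 and 15 for Clec7a, and in only 10, 9 and 9 for Itgax. Spp1, Cst7, Clec7a and Itgax are also known as genes of plaque-associated microglia that depend on TREM2. The medians of the whole list, 0.2, 0.04 and -0.18, did not share their direction in 2 of the comparisons. In the joint comparison, the one in which Tgfbr2 passed, both lists held calls in each direction. Of the dependent list, Tmem119, Sparc, Crybb1 and the purinergic receptor P2ry13 (0.40, adjusted p 0.0242) rose, and Gas6 and Pros1 fell. Of the loss list, Axl and the 4 genes above fell, and Lyz2, a lysozyme that neutrophils and monocytes also make, rose by 2.75 (adjusted p 0.0125). With the neutrophil covariate Lyz2 gave 0.47 (adjusted p 0.825), and without Tyrobp mutant replicate 1 it gave 2.24 (adjusted p 0.0568). P2ry13, Gas6, Pros1, Axl and Lyz2 were named after their values were seen.

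**Figure D5:**
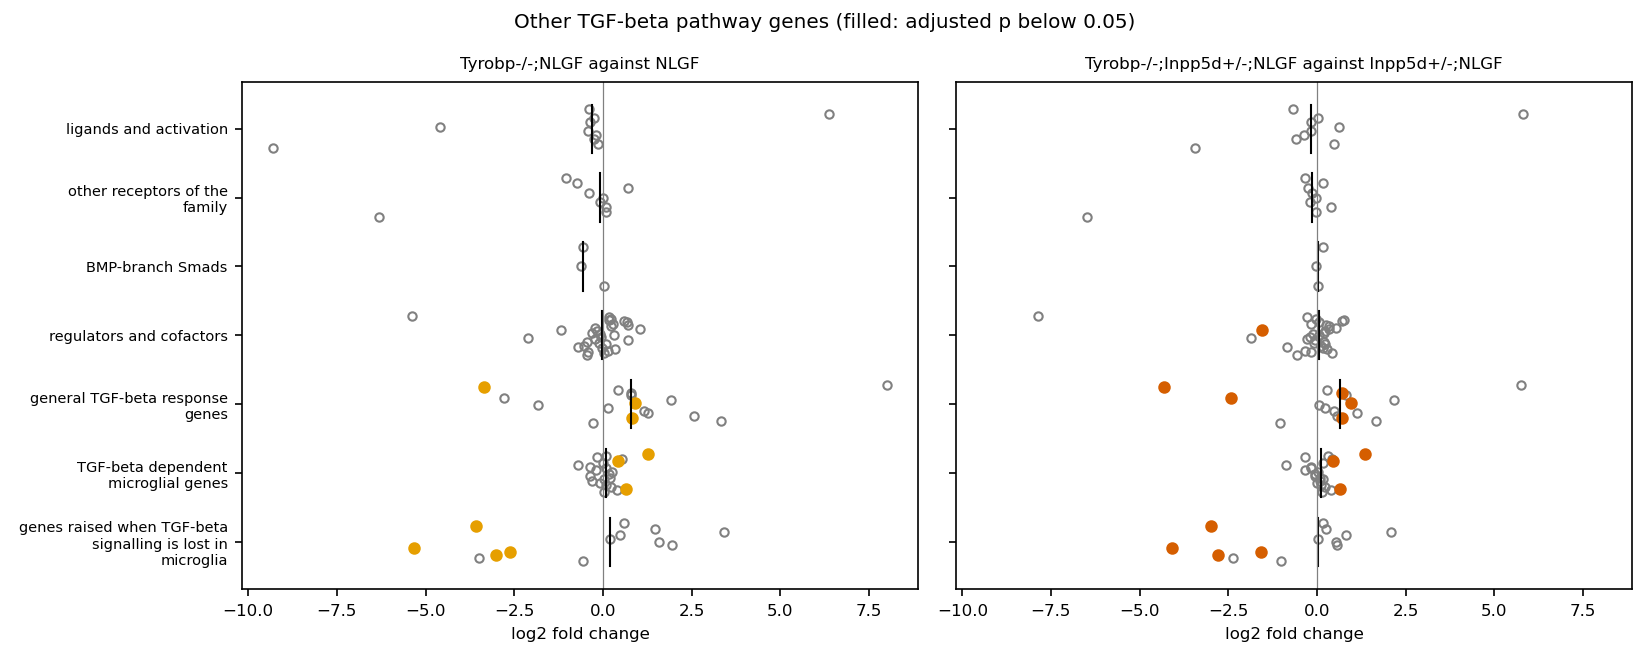
Log2 fold change of the tested genes of 7 TGF-beta pathway lists in the Tyrobp mutant against NLGF (left) and the compound mutant against the Inpp5d heterozygote (right), with filled points for genes past the threshold and a bar at each list's median. Filled points sit in the 3 response lists, apart from 1 regulator (Dab2) on the right.

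Counts of called genes fell under several alternatives, in the lists as over all genes. Without Tyrobp mutant replicate 1 and compound replicate 2, the number of called pathway genes dropped from 10 to 3, from 13 to 4 and from 12 to 6 in the 3 comparisons, while that over all genes dropped from 176 to 27, from 183 to 50 and from 178 to 64. With a neutrophil covariate the pathway counts were 2, 3 and 4, beside 13, 34 and 34 over all genes. In the first comparison Bhlhe40 and Spp1 then kept the call (adjusted p 0.0305 and 0.0043). Id2, Junb, Tmem119, Sparc, Crybb1, Itgax, Clec7a and Cst7 kept their direction but lost it, at adjusted p from 0.0605 to 0.447. Leaving out either library of the Tyrobp mutant leaves 1 in that group, which is then taken to vary like the other groups. It gave 3 pathway genes in the first comparison either way, beside 31 (without replicate 1) and 36 (without replicate 2) over all genes. No named gene of the lists turned its direction in any of the 1004 values of its printed differences under alternative settings. These genes were named for passing the threshold, or after their values were seen, and every alternative used the same libraries or part of them. Kept direction was therefore likely beforehand and gives no independent support. Of those values, 735 kept their side of the threshold, and most of the others lost the call.

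By root mean square difference of log2 CPM, each gene centred on its mean over the 11 libraries, the 4 genes closest in pattern to Tgfbr2 were Gtf2a1 (0.127), Cd52 (0.15), Tmem176a (0.157) and Mgrn1 (0.159), where a gene without variation would differ by 0.433 and the median over 10459 genes was 0.542. Closest to Nrros were Zcchc7 (0.127), Prmt7 (0.128), Pigc (0.132) and Tubgcp6 (0.133), with 0.308 for a gene without variation and a median of 0.439. Closest to Smad7 were Lbhd1 (0.0894), Gm38843 (0.105), Tmem100 (0.126) and Ncbp3 (0.135), with 0.25 and 0.398. No other member was among the closest genes of these 3.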

How the data were processed

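RNA was measured in 11 libraries of sorted mouse microglia, made with the SMART-Seq v4 kit, per the labels' protocols, a full-length method that does not mark strand. The authors deposited whole-number read counts per gene with gene positions and exon lengths. STAR 2.7.3a, featureCounts 1.6.4, GRCm38.p6 and mm10 are named in the submitters' processing notes. Not given in the sources used here are the annotation release, the strand setting and the treatment of multiply placed reads.

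Groups follow the genotype label. Replicate numbers follow accession order and pair nothing. The labels do not tie libraries to litters or pooled animals, so p-values measure the spread between libraries. Genes were filtered with filterByExpr (minimum count 10, minimum total 15), scaled by TMM and fitted in 1 model of 4 groups with edgeR 4.0.16 (R 4.3.3). Adjusted p-values are Benjamini-Hochberg values over all tested genes, with a threshold of 0.05. CPM and CPM per kb were computed here. The procedure was tested on simulated data.

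The members and gene lists were chosen with earlier results of these data known. Named were the members, Tyrobp, Inpp5d, up to 4 genes per list called in a pairwise comparison with the smallest p, and the 4 genes closest in pattern to the 3 members with the smallest p; others are marked. The joint Tyrobp comparison was added after the data were seen. Alternatives were scaling by RLE or upper quartile, a filter at 1 CPM or none, DESeq2 1.42.0, limma-voom 3.58.1 with quality weights, 2-group fits, neutrophil and immediate early covariates, omission of both libraries with most S100a8, a threshold of 0.1 and omission of each library. Motifs were searched in RefSeq promoter windows of GRCm38.p6.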

Additional observations from a re-analysis of the deposited data

How the results depend on the processing

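The joint Tyrobp comparison had 21 alternatives and each other fit up to 22; 2-group fits were not run for the joint comparison and the interaction. Of 781 values of member fold changes under them, 738 kept direction and side of the threshold, 16 passed newly, 4 lost the call and 23 turned direction. No paired analysis was possible because the replicate numbers follow accession order and pair no samples.

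Members called numbered 1 in the Tyrobp mutant against NLGF, 3 in the compound mutant against the Inpp5d heterozygote, 3 against NLGF and 3 in the joint comparison with DESeq2, which called 11.5% of all genes in the last. With a filter at 1 CPM or a threshold of 0.1 the second was 1 (against 2.09% and 1.84% of all genes), and at 0.1 the joint count was 2 (7.99%). It was 0 with either covariate and without both libraries richest in S100a8. Fits with 1 library left out were compared where each group kept at least 2. There the 4 counts ranged from 0 to 1, 0 to 1, 0 to 1 and 1 to 2. In the same order, 0.436% to 1%, 0.33% to 0.909%, 0.308% to 0.756% and 3.32% to 3.85% of all tested genes were called.

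Called genes of the other pathway lists, 10, 13, 12 and 21 in these 4 comparisons, numbered 24, 22, 21 and 33 with DESeq2. Of the genes it tested, DESeq2 called 5.72%, 5.74%, 5.64% and 11.5%. It also called 1 list gene in the compound mutant against the Tyrobp mutant (0.266%) and 1 for the interaction (0.18%). In 2-group fits the first 3 list counts were 5, 7 and 5 (0.416%, 0.602% and 0.319% of all tested genes). With the neutrophil covariate the 4 were 2, 3, 4 and 4 (0.0638%, 0.167%, 0.167% and 0.245%). With the immediate early covariate they were 3, 10, 6 and 10 (0.162%, 0.844%, 0.191% and 0.942%). Without both S100a8-rich libraries they were 3, 4, 6 and 13. With each library left out they ranged from 3 to 13, 6 to 12, 5 to 14 and 14 to 22. For the fits that kept at least 2 libraries in each group, the shares over all tested genes are those given above. The cause of these shifts was not tested.

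Values that turned direction lay near 0. With the immediate early covariate these were Smad7 in the Tyrobp mutant against NLGF (-0.02), Smad3 in the compound mutant against the Inpp5d heterozygote (-0.01), the Tgfbr2 interaction (0.08) and the joint values of Smad4 (0.13), Ski (-0.13) and Skil (-0.19). With the neutrophil covariate they were the Tgfbr2 interaction (0.06) and joint Smad2 (-0.15, from 0.17). Joint Smad4 was 0.02 with limma-voom. Without both S100a8-rich libraries, Smad3 in the compound mutant against the Inpp5d heterozygote was -0.08 and Tgfbr2 in the compound mutant against the Tyrobp mutant -0.04. With each library left out, the Tgfbr2 interaction ranged from -0.17 to 0.17, Tgfbr2 in the compound mutant against the Tyrobp mutant from -0.03 to 0.30, joint Ski from -0.05 to 0.19, joint Smad4 from -0.14 to 0.22, and Tgfbr1 and Smad3 in the compound mutant against the Inpp5d heterozygote from -0.15 to 0.02 and from -0.08 to 0.19.

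With 2 to 3 libraries per group, member differences of the size seen here mostly fell short of the threshold. Intervals are printed beside some of the values only. They give the range of differences the data allow for a single gene, without the adjustment over all tested genes. They therefore do not show which differences would have gone undetected.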

Other observations

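Bambi, a decoy receptor that lacks a kinase and dampens TGF-beta signalling, was named after its values were seen. It stood at 22.1 ± 5.83 CPM (SD, n = 3) in NLGF and 18.8 ± 4.46 (SD, n = 3) in the Inpp5d heterozygote, against 5.11 ± 1.62 (SD, n = 2) in the Tyrobp mutant and 5.16 ± 3.82 (SD, n = 3) in the compound mutant. All 5 Tyrobp-/- libraries lay below the other 6. In the joint comparison it fell by 1.99 on the log2 scale (SE 0.4, adjusted p 0.024 by edgeR's quasi-likelihood test), a call kept in 13 of 21 alternatives.

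Axl, a receptor tyrosine kinase that clears dying cells, its ligand Gas6, and Pros1, a ligand of the same receptor family, stood on different response lists and were also named after their values were seen. Axl stood at 527 ± 98.4 CPM (SD, n = 3) in NLGF and 585 ± 79.9 (SD, n = 3) in the Inpp5d heterozygote, against 47.4 ± 26.5 (SD, n = 2) in the Tyrobp mutant and 113 ± 113 (SD, n = 3) in the compound mutant. It fell by 2.92 on the log2 scale in the joint edgeR comparison (SE 0.49, adjusted p 0.0103), and Gas6 fell by 0.79 (SE 0.15, adjusted p 0.0169). Pros1 fell by 0.26 (SE 0.062, adjusted p 0.0467), a call kept in 6 of 21 alternatives, against 18 for Axl and 16 for Gas6.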
